A study of Homo sapiens with 36 samples.

Results

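The expression of 9 tight junction genes (CLDN1, CLDN4, CLDN7, OCLN, MARVELD2, F11R, TJP1, TJP3 and CGN), chosen by name among 60725 Ensembl genes, was examined in 36 RNA-seq libraries of 2 human breast cell lines. The libraries form 18 groups of 2. ER-Src cells are MCF-10A mammary epithelial cells that carry v-Src fused to the ligand-binding domain of the estrogen receptor. Tamoxifen (TAM) activates v-Src and transforms them, and ethanol (ETH) is the vehicle. For the TAM condition the labels and the methods of the study also name the compound AZD0530, and which exposure time applies to each library is not given in the sources used here. ER-Src cells in either treatment received siRNA pools against YAP (YAPi), TAZ (TAZi), STAT3 (STAT3i) or JUNB (JUNBi), or a control siRNA (Ctrli), which makes 10 groups. MDA-MB-231 is a triple-negative breast cancer line. Its labels name no transgene and no transformation status, but they repeat the growth and treatment text of ER-Src cells, so its own culture conditions and any treatment are not given in the sources used here. Its titles form 2 sets with their own controls. Beside Ctrli, set 1 received siRNAs against YAP, TAZ, their combination (YAPi_TAZi) or the TEAD family (TEADi), and set 2 against JUNB or STAT3. The siRNA pools act on messenger RNA of a whole culture, and no label says that the 2 libraries of a group came from separate cultures, so p-values measure the spread between these libraries, which may be technical.

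Tight junctions seal the space between neighbouring epithelial cells near their apical side. Claudins form the paracellular strands and set their selectivity. Occludin and tricellulin are four-span membrane proteins with a shared MARVEL domain. F11R (JAM-A) is an immunoglobulin-type adhesion receptor, and TJP1 (ZO-1), TJP3 (ZO-3) and CGN (cingulin) are cytoplasmic proteins that tie the strands to actin. Mammary epithelial cells build these junctions as part of their polarity, and loss of junction proteins is a textbook feature of cells that turn mesenchymal. YAP and TAZ are co-activators that bind DNA through factors such as TEAD proteins, JUNB is an AP-1 subunit, and STAT3 is a cytokine-activated factor.

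The RefSeq table of start-site sequences (GRCh38.p14, 250 bases before and 50 after each gene start) held 14 entries for 8 of the 9 genes. The sequences upstream of CLDN4 and CLDN1 are shown because CLDN4 had the largest called change in YAPi cells and both claudins were called in YAPi under each treatment. That of CLDN4 (chr7:73830746-73830995, plus strand) contains 2 matches to TGANTCA, the core letters of AP-1 sites, in capitals. That of CLDN1 (chr3:190322447-190322696, minus strand) contains none.
CLDN4: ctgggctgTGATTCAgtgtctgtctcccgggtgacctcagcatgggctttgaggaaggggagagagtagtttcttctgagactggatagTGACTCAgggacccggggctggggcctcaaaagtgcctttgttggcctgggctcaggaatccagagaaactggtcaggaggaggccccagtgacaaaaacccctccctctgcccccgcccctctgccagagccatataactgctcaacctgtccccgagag
CLDN1: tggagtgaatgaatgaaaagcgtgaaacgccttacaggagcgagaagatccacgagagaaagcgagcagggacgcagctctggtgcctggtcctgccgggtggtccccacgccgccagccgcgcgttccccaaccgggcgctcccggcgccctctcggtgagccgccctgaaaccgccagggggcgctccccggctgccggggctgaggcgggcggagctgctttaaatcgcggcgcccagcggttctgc
The CLDN4 matches start at bases -242 and -161 from the start of the RefSeq entry. That start lies inside the GENCODE span of CLDN4 (chr7:73799542-73832690), whose own start is further upstream. Of 35116 sequences listed, 7.71% hold at least 1 such match and 0.515% hold at least 2. None of the other 13 entries of the 9 genes holds one. No entry holds GGAATG, the letters searched for TEAD sites and found in 14.0% of the table, or TTCNNNGAA, searched for STAT sites and found in 7.66%. The E-box CAGGTG, a target of SNAI and ZEB repressors that stands in 20.6% of the table, occurs in entries of OCLN, TJP1, TJP3 and CLDN7, with 5 matches in the second entry of CLDN7. Each motif was searched on both strands over the whole window, and a match is a run of letters, not a bound site. No letters of F11R are shown.

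In GENCODE coordinates (GRCh38) CLDN1 (ENSG00000163347.5) spans chr3:190305707-190322446 on the minus strand and CLDN4 (ENSG00000189143.9) spans chr7:73799542-73832690 on the plus strand. CLDN7 (ENSG00000181885.18, chr17:7259903-7263983, minus strand) overlaps ELP5 on the other strand and a read-through gene on its own. OCLN (ENSG00000197822.10) and MARVELD2 (ENSG00000152939.14) are neighbours on chromosome 5, at chr5:69492292-69558104 and chr5:69415065-69444330. F11R (ENSG00000158769.17, chr1:160995211-161021343, minus strand) overlaps a read-through gene on its strand that took up to 265 counts in a library, so reads of these may be split. TJP1 (ENSG00000104067.16) is at chr15:29699367-29968915, TJP3 (ENSG00000105289.14) at chr19:3708362-3750813, where it overlaps APBA3 on the other strand, and CGN (ENSG00000143375.14) at chr1:151510510-151538692. The pseudogenes OCLNP1 and CLDN7P1 held at most 7.55 and 1.0 counts in any library. Strand use in the counting is not given in the sources used here, so counts of CLDN7 and TJP3 where they meet a gene on the other strand are uncertain.

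The libraries differed in depth and make-up. Total expected counts per library were 6419720 to 19161700 for ER-Src, 1411304 to 2784605 for knockdowns of set 1, 13456784 and 13534560 for its controls and 7290499 to 18076158 for set 2. A group of 7 RNAs without poly(A) tails took 9.43% to 11.7% of ER-Src counts and 8.71% to 11.8% of those of set 1 knockdowns, but at most 0.0112% in set 2 and 0.00407% in the controls of set 1. Protein-coding genes accordingly held 20.2% to 28.9% of all TPM (RSEM's level per gene length, scaled to a fixed total per library) for ER-Src, 20.0% to 37.9% for knockdowns of set 1 and 94.0% to 94.5% elsewhere. Levels set across these library types are therefore also given as TPM over protein-coding genes, in which those genes alone are scaled to the full total. In set 1, knockdown and library type cannot be told apart. The gap between gene length and effective length was 49.5 bases in Ctrli, YAPi and TAZi of ER-Src and 49.0 in STAT3i and JUNBi, which likewise cannot be told apart from the knockdown. Targeted genes were lower at an adjusted p under 0.01 in all ER-Src knockdowns except JUNB in JUNBi under ETH (-1.16, SE 0.39, adjusted p 0.064). JUNB was also lower in STAT3i under TAM (-2.41, SE 0.16, adjusted p 2.5e-47), beside -2.03 (SE 0.35) in JUNBi under TAM. These 2 knockdowns thus shared a lower JUNB level under TAM. In MDA-MB-231 YAP1, WWTR1 (TAZ) and JUNB were lower at that threshold in their own knockdowns, and STAT3 in STAT3i (-2.41, SE 0.32) had no adjusted p. In TEADi, TEAD1 (-0.82), TEAD2 (-4.3), TEAD3 (-1.62) and TEAD4 (-6.34) were called lower. Drops in set 1 were not confined to the matching siRNA. TEAD3 and TEAD4 were called lower in all 4 knockdowns, and WWTR1 also in YAPi (-1.14) and TEADi (-0.89). Called higher were STAT3 in all 4, YAP1 in TAZi and TEAD1 in YAPi and TAZi.

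ER-Src libraries expressed all 9 genes over a wide range of levels, led by CLDN7. Over the 20 ER-Src libraries the lowest, median and highest TPM were 20.5, 36.1 and 65.9 for CLDN7, 16.4, 22.3 and 28.1 for F11R and 6.03, 9.53 and 15.8 for TJP1. OCLN stood at 1.52, 4.11 and 10.8 TPM, MARVELD2 at 1.19, 2.44 and 3.62 and CLDN1 at 0.72, 1.79 and 5.64. The low end was held by TJP3 (0.17, 1.05 and 2.94 TPM), CGN (0.09, 0.44 and 2.01) and CLDN4 (0.01, 0.19 and 6.59). Within each library CLDN7 was above F11R, F11R above TJP1 and TJP1 above OCLN in 20 of 20, and only F11R and TJP1 had ranges that did not overlap. Further down the order was looser, with MARVELD2 above CLDN1 in 13 of 20 libraries and CGN above CLDN4 in 15. CLDN4, a claudin of many secretory and glandular epithelia, was thus at 0.6 TPM or below in every ER-Src library outside YAPi. Of 9 epithelial markers, E-cadherin (CDH1, 6.31 to 20.5 TPM), KRT5 (1010.0 to 2620.0), KRT14, KRT8, KRT18, EPCAM and ESRP1 were present in every library, while OVOL1 was at most 1.18 TPM and GRHL2 at most 0.06. Of the mesenchymal markers VIM was at 184.0 to 338.0 TPM and FN1 at 22.6 to 87.0. CDH2 (2.13 to 6.76), ZEB1 (2.37 to 5.74), ZEB2 (0.96 to 2.88) and SNAI2 (2.87 to 10.8) were present at lower levels. Of the markers of other cells PTPRC, CD3E and VWF were at most 0.08 and CD68 was at 1.86 to 18.1.

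**Figure D1:**
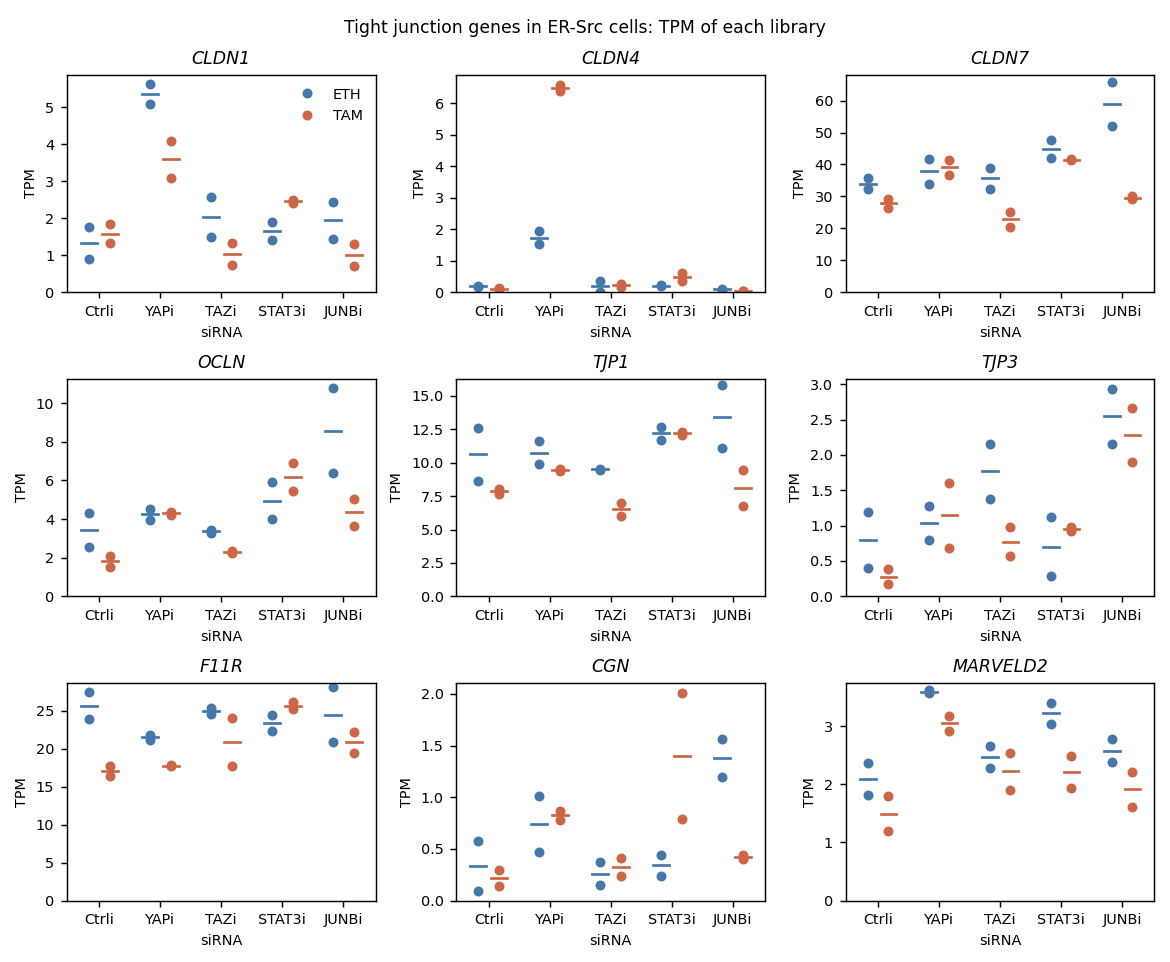
TPM of the 9 tight junction genes (y axes, from 0) in each ER-Src library by siRNA (x axes), with ETH in blue and TAM in orange; points are libraries and bars are means of 2. CLDN4 stands out in YAPi, at 1.52 and 1.93 TPM in ETH and 6.59 and 6.39 TPM in TAM, above the 0.6 TPM that no other library passed.

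Comparing TAM with ETH in Ctrli asks whether the TAM condition, for which the methods also name AZD0530, changed these genes. The exposure time of each library is not known, so transformation itself was not tested apart from it. The TAM condition did not move any of the genes past the threshold. With DESeq2, 0 of 9 genes had an adjusted p under 0.01, 0 had an unadjusted p under 0.05, and edgeR also called 0, against 5.69% of all tested genes called. CLDN7 stood at 35.7 and 32.2 TPM in ETH and 26.5 and 29.3 TPM in TAM, and its log2 fold change from counts was 0.07 (95% interval -0.24 to 0.37, adjusted p 0.98). For F11R the interval was -0.25 to 0.28 and for TJP1 -0.51 to 0.04. OCLN was at 4.33 and 2.54 TPM in ETH and 1.52 and 2.11 TPM in TAM. The groups did not overlap in TPM, yet the change of -0.39 (SE 0.33) had an adjusted p of 0.75. For the scarce genes the intervals were wide, as for CLDN4 (-2.74 to 2.83) with 4 to 7 counts per library. TPM of F11R was also lower in both TAM libraries (16.4 and 17.7) than in ETH (27.5 and 23.9), whereas the count-based change was 0.01 (SE 0.13). In these bulk samples fewer expressing cells and less RNA per cell cannot be told apart.

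Other genes of the junction did respond to TAM. Of 37 further tight junction genes on a fixed list, 29 were tested and 0 fell, and those that rose included the following. CXADR, which encodes the coxsackievirus and adenovirus receptor, an adhesion protein of the junction, rose by 2.73 (SE 0.20, adjusted p 2.1e-38). YBX3, the ZO-1-associated Y-box protein ZONAB, rose by 1.32 (SE 0.12, adjusted p 3.8e-27). USP53 (0.72) and AMOTL2 (0.53), an angiomotin that binds YAP, rose as well.

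YAPi in TAM-treated ER-Src cells gave the most calls among the 9 genes. CLDN1, CLDN4, CLDN7, OCLN, CGN and MARVELD2 rose, 0 fell, and all 9 estimates were above 0. The count of 6 of 9 stands beside 10.4% of all tested genes called, with 5.14% of tested genes called higher. The median log2 fold change of the 9 was 1.16 and that of all genes was 0.01. With edgeR the 6 named were called as well.

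Of the 6, CLDN4 rose the most and CLDN7, another claudin, the least. CLDN4 had 5 and 4 counts in the Ctrli libraries under TAM (0.12 and 0.11 TPM) and 340 and 521 in YAPi (6.59 and 6.39 TPM). The YAPi libraries lay far above the controls, with a log2 fold change of 5.70 (SE 0.55, adjusted p 2.5e-22), or 52.1-fold. CLDN1, the claudin that skin and many epithelia need for their barrier, measured 1.83 and 1.33 TPM in the controls against 3.08 and 4.1 TPM after YAPi (1.82, SE 0.30, adjusted p 1e-07). The CLDN1 estimate was smaller with effective length offsets (1.27, adjusted p 0.0013). It was 1.47 without replicate 2 of YAPi, where the call was lost. CLDN7, the claudin most abundant here and a partner of EPCAM, went from 26.5 and 29.3 TPM to 41.5 and 36.6 TPM (0.61, SE 0.15, adjusted p 0.00048). No claudin library of YAPi overlapped the controls. The call for CLDN7 was small in size and was lost in a fit over all groups (adjusted p 0.026) and when any of the 4 libraries was left out (0.015 to 0.18).

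Transcripts of the MARVEL proteins rose by about the same factor. OCLN was at 1.52 and 2.11 TPM in Ctrli and 4.39 and 4.23 TPM in YAPi (1.04, SE 0.28, adjusted p 0.0028). MARVELD2, which encodes tricellulin of three-cell contacts, went from 1.8 and 1.19 TPM to 3.18 and 2.91 TPM (1.16, SE 0.28, adjusted p 0.00047). Their YAPi libraries did not overlap the controls. Each of these calls was lost when any library was left out, with adjusted p-values of 0.034 to 0.44 for OCLN and 0.024 to 0.18 for MARVELD2.

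Among scaffolds and JAM-A, CGN rose from 0.3 and 0.14 TPM (15 and 7 counts) to 0.87 and 0.78 TPM (95 and 127 counts). Its log2 fold change was 2.51 (SE 0.56, adjusted p 0.00016), and the call was lost with effective length offsets (2.00, adjusted p 0.011) and without any 1 of the libraries (0.023 to 0.1). TJP1 at 8.01 and 7.69 TPM in Ctrli and 9.37 and 9.5 TPM in YAPi was not called (0.28, SE 0.14, adjusted p 0.19). F11R had an estimate of 0.40 (SE 0.15, adjusted p 0.041) and TJP3 of 1.48 (SE 0.66, adjusted p 0.12). The transmembrane genes of the list other than F11R thus passed the threshold and, of the scaffolds, CGN alone did.

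**Figure D2:**
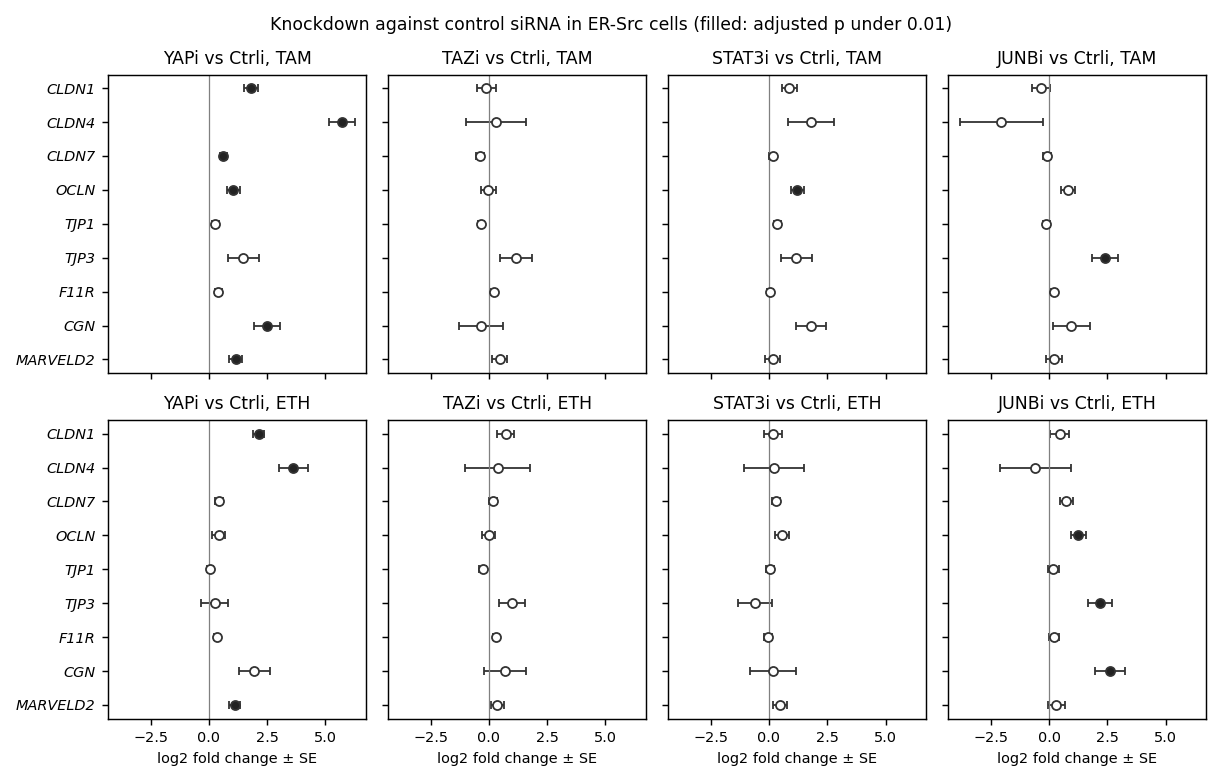
Log2 fold change from DESeq2 (x axes, bars are 1 SE) of the 9 genes (y axis) for each siRNA against Ctrli in ER-Src cells under TAM (top row) and ETH (bottom row), with filled points at an adjusted p under 0.01. YAPi under TAM has 6 filled points, all to the right of 0, and no panel has a filled point to the left.

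Under ETH, YAPi raised CLDN1, CLDN4 and MARVELD2, and again all 9 estimates from counts were above 0. In this comparison 11.6% of tested genes were called, 5.11% in the higher direction, and the median of the 9 was 0.44. CLDN1 measured 1.75 and 0.89 TPM in the controls against 5.64 and 5.08 TPM after YAPi (2.14, SE 0.24, adjusted p 3.1e-17). CLDN4 had 7 and 6 counts in Ctrli and 118 and 90 in YAPi (3.62, SE 0.63, adjusted p 3.5e-07), or 12.3-fold, and the adjusted p was 0.012 without replicate 2 of YAPi. MARVELD2 rose from 2.37 and 1.82 TPM to 3.56 and 3.62 TPM (1.10, SE 0.24, adjusted p 0.00013), a call that was lost when any of the 4 libraries was left out (0.022 to 0.058). The YAPi libraries stood above the controls for all 3. CGN had an estimate of 1.95 (SE 0.65, adjusted p 0.021) that edgeR called (adjusted p 0.0077). CLDN7 (0.44, adjusted p 0.046) and OCLN (0.42, adjusted p 0.32) were not called. F11R had an estimate of 0.34 from counts (adjusted p 0.062). Its TPM was lower in YAPi (21.2 and 21.8) than in Ctrli (27.5 and 23.9), so its direction depended on the scale.

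CLDN4 reached a higher level in YAPi under TAM than under ETH, although Ctrli was near 0 in both. The interaction, which tests whether the effect of YAPi differs between the treatments, was 2.08 (SE 0.77, 95% interval 0.57 to 3.59) with an adjusted p of 0.34, so the difference was not called. For CLDN1 it was -0.34 (interval -1.07 to 0.39) and for MARVELD2 0.05 (-0.61 to 0.71). None of the 29 interactions of the 9 genes that had an adjusted p in the 4 knockdowns was called with DESeq2, edgeR called 0, and 3 had an unadjusted p under 0.05: CLDN4 in YAPi and CLDN7 in TAZi and JUNBi. Over all tested genes 0.498%, 1.6%, 1.34% and 0.288% of interactions were called for YAPi, TAZi, STAT3i and JUNBi. Leaving out replicate 1 of JUNBi under ETH gave a call for CLDN7 in JUNBi (-1.10, adjusted p 0.00045).

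The further tight junction genes did not rise with YAPi at the threshold. In YAPi under TAM, 28 of the 37 further genes were tested, 0 rose and 4 fell, with a median of -0.07. Those that fell were EPCAM, the CLDN7-binding adhesion protein (-1.07, adjusted p 5.9e-05), the scaffold MPDZ (-0.73, adjusted p 0.0035), USP53 (-0.71, adjusted p 4.3e-05) and YBX3 (-0.49, adjusted p 0.00078). Under ETH, EPCAM (-1.31, adjusted p 4.4e-09) and MPDZ (-0.81, adjusted p 0.00054) fell and 0 of 27 rose. The 9 genes were chosen by name with earlier results of these data known, so a contrast with the remaining list is a description. Several epithelial markers moved in both YAPi comparisons. CDH1 rose by 1.58 under TAM and 0.99 under ETH (adjusted p 3.5e-19 and 1.1e-09), OVOL1 rose by 4.58 and 4.17 (adjusted p 0.0048 and 0.0012), and KRT14 (-1.55 and -1.06) and KRT18 (-0.69 and -0.94) fell. KRT5 and ESRP1 were not called. Of the mesenchymal markers FN1 rose by 0.95 and 1.59 and VIM, CDH2, ZEB1, ZEB2 and SNAI2 were not called at 0.01. Their part in the result was not tested.

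**Figure D3:**
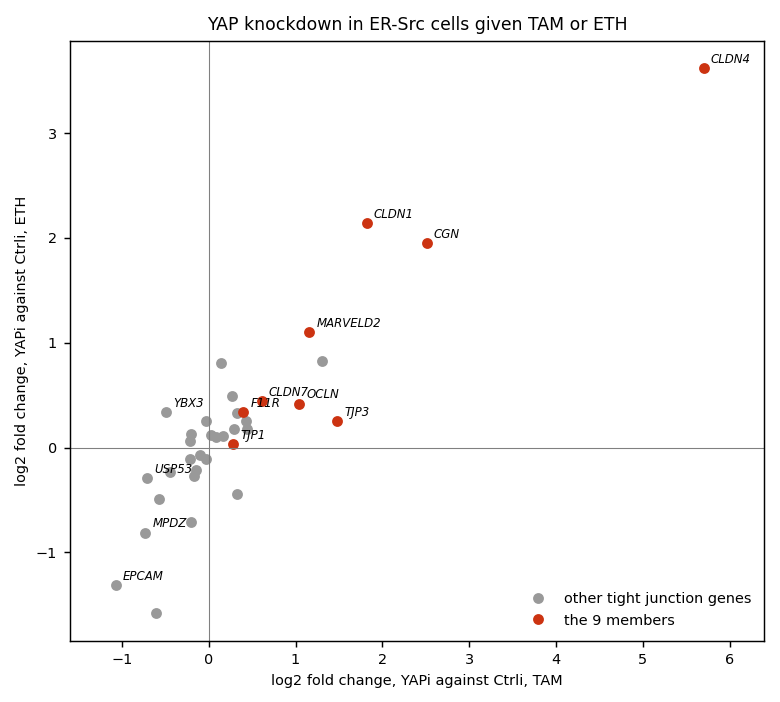
Log2 fold change from counts of YAPi against Ctrli under TAM (x axis) and under ETH (y axis) for the 9 genes (red) and 27 further tight junction genes with an adjusted p in both (grey, named where called). All 9 red points are above 0 on both axes, while 10 grey points are above 0 on both and 12 below on both; the axes use different control libraries.

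TAZi did not move the 9 genes past the threshold in either treatment, although TAZ messenger RNA itself fell by 2.23 on the log2 scale under TAM and 1.86 under ETH. Under TAM 0 of 9 were called, with 2.78% of all tested genes called, and under ETH 0 of 8, with 4.94%. With edgeR the counts were 0 and 0, with 4 and 5 genes at an unadjusted p under 0.05. At an unadjusted p under 0.05 DESeq2 had TJP1 and CLDN7 under TAM (estimates -0.34 and -0.39) and F11R and CLDN1 under ETH (0.31 and 0.71). CLDN4 had 8 and 11 counts in TAZi under TAM and 1 and 12 under ETH, against 4 to 7 in Ctrli. CLDN1 had an interval of -0.90 to 0.68 in TAZi under TAM, which does not reach the 1.82 estimated for YAPi. The same interval for OCLN was -0.67 to 0.61. YAPi and TAZi share their controls, and their difference was not tested. Elsewhere in the junction CXADR rose in TAZi under TAM (0.64, adjusted p 0.00025) and AMOTL2 under ETH (0.50, adjusted p 0.0083). Of the cell type markers, CDH1 (0.71, adjusted p 0.00017), KRT5 (0.70, 9.7e-12), KRT14 (1.54, 2.8e-34) and FN1 (0.54, 0.00094) rose in TAZi under ETH. KRT18 fell there (-0.40, adjusted p 0.0014). No epithelial or mesenchymal marker was called in TAZi under TAM, and their part was not tested.

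In STAT3i, OCLN rose under TAM and 0 genes of the 9 were called under ETH. OCLN was at 1.52 and 2.11 TPM in Ctrli and 6.88 and 5.44 TPM in STAT3i, its highest TAM values, with a log2 fold change of 1.22 (SE 0.27, adjusted p 0.00021). The call was lost without replicate 1 of Ctrli (adjusted p 0.1) and without replicate 1 or 2 of STAT3i (0.24 and 0.018). In this comparison 8.22% of tested genes were called, 3.34% in the higher direction, and all 9 estimates were above 0, with a median of 0.87 against 0.03 for all genes. CGN had 86 and 57 counts in STAT3i and 15 and 7 in Ctrli (1.80, SE 0.65, adjusted p 0.045, and 0.0075 with edgeR). CLDN1 was at 2.41 and 2.5 TPM (0.87, SE 0.32, adjusted p 0.053). CLDN4 had 41 and 20 counts, the most in ER-Src outside YAPi, but its estimate of 1.79 (SE 0.99) had an adjusted p of 0.25. CDH1 (0.90, adjusted p 6.1e-06) and SNAI2 (0.76, adjusted p 0.0024) rose in this comparison and KRT14 fell (-1.08, adjusted p 4.9e-22), and their part was not tested.

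STAT3i under ETH called 0.173% of all tested genes, and edgeR 0 of all genes, with 2 of the 9 at an unadjusted p under 0.05 by edgeR and 0 by DESeq2. The 2 libraries of STAT3i and of JUNBi under ETH differed more from each other than those of other groups, at a chi-square per gene of 42.7 and 51.6 against at most 20.2. Among the further genes, STAT3i under TAM raised the polarity scaffold PALS1 (0.92, adjusted p 1.7e-07) and lowered CXADR (-1.75, adjusted p 4.2e-17) and YBX3 (-0.97, adjusted p 1.5e-12). For the last 2, both of which TAM raised in Ctrli, the interaction was also called (-2.25, adjusted p 4.3e-10, and -1.11, adjusted p 1.8e-05). These comparisons share the Ctrli libraries.

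JUNBi raised the scaffold TJP3 in both treatments. Under TAM it was at 0.38 and 0.17 TPM (19 and 8 counts) in Ctrli and 2.67 and 1.9 TPM (117 and 132 counts) in JUNBi, with a log2 fold change of 2.40 (SE 0.54, adjusted p 0.00024). It was the only one of 8 tested genes called, beside 6.9% of all tested genes, or 2.84% called higher. The call was lost when replicate 1 or 2 of Ctrli was left out (adjusted p 0.026 and 0.032) or replicate 1 of JUNBi (0.11), and without replicate 2 of JUNBi the gene had no adjusted p. Under ETH, TJP3 was at 0.4 and 1.2 TPM in Ctrli and 2.15 and 2.94 TPM in JUNBi (2.20, SE 0.51, adjusted p 0.001). OCLN, at 4.33 and 2.54 against 10.8 and 6.36 TPM, rose by 1.26 (SE 0.32, adjusted p 0.0034), and CGN, at 16 and 8 against 87 and 85 counts, by 2.63 (SE 0.65, adjusted p 0.0026). The JUNBi libraries lay above the controls for these 3 genes, while 2.8% of all tested genes were called, 1.19% higher.

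None of the 3 calls under ETH held with edgeR (adjusted p 0.089, 0.084 and 0.053 for TJP3, OCLN and CGN), which called 1 gene in all, or with effective length offsets (0.11, 0.012 and 0.079), and leaving out 1 library gave adjusted p-values up to 0.59, 0.88 and 0.55. CLDN7 reached its highest ER-Src level here, 51.9 and 65.9 TPM against 35.7 and 32.2 in Ctrli (0.74, SE 0.27, adjusted p 0.092), and it was called without replicate 1 of JUNBi (1.00, adjusted p 6.3e-06). CLDN4 had 2 and 2 counts in JUNBi under TAM, with no adjusted p. PALS1 rose under TAM (0.89, adjusted p 3.6e-06) and under ETH (1.03, adjusted p 0.0062). KRT14 fell in both (-2.04 and -1.50, adjusted p 3.8e-49 and 1.6e-05) and CDH1 rose (0.88 and 1.05, adjusted p 2.5e-05 and 0.00058). KRT8 rose in both as well (0.64 and 1.14, adjusted p 7.3e-05 and 0.00099), and FN1 fell under TAM (-0.50, adjusted p 0.00011). Their part was not tested.

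Across the 4 knockdowns the pattern differed by gene. Of 36 pairs of gene and knockdown per treatment in ER-Src, 35 had an adjusted p under TAM and 34 under ETH. Of these, 8 were called higher under TAM and 6 under ETH, and 0 lower in either. Called in either direction under TAM were 10.4%, 2.78%, 8.22% and 6.9% of all tested genes in YAPi, TAZi, STAT3i and JUNBi. Under ETH these shares were 11.6%, 4.94%, 0.173% and 2.8%. OCLN was called in YAPi and STAT3i under TAM and in JUNBi under ETH. CLDN1, CLDN4, CLDN7 and MARVELD2 were called in YAPi and in no other ER-Src knockdown, CGN in YAPi under TAM and JUNBi under ETH, TJP3 in JUNBi alone, and TJP1 and F11R in none. A call in 1 knockdown and not in another is not a test of their difference, and JUNB itself was lower in both STAT3i and JUNBi under TAM.

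Over the means of the 10 ER-Src groups, CLDN7 and TJP1 varied together most closely (Pearson r = 0.94 on log2(TPM + 1)), followed by CLDN7 with OCLN (0.88), OCLN with TJP1 (0.83) and OCLN with CGN (0.83). CLDN1 followed CLDN4 (0.74) and MARVELD2 (0.70). The lowest r was that of F11R with CLDN4 (-0.44), although in YAPi the estimates from counts were above 0 for both genes. Among 6956 genes with a mean of at least 5 TPM, those most like a member were YIPF3 for OCLN (0.965), LGALS3 for TJP1 (0.953), TOR1AIP2 for MARVELD2 (0.934) and RBFOX2 for F11R (0.972). For CLDN7 the closest was TJP1 itself (0.942), for TJP3 the pseudogene DUXAP9 (0.935) and for CLDN1 the pseudogene YWHAZP3 (0.921). The next were UBE2A for OCLN (0.962), PINK1 for TJP1 (0.947), TMEM9B for MARVELD2 (0.910), NCBP3 for F11R (0.964), CD99 for CLDN7 (0.919), INPP5K for TJP3 (0.921) and FAM25A for CLDN1 (0.912). The groups share library composition and an offset in effective length, and CGN and CLDN4 averaged under 1 TPM and were left out of this search.

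In MDA-MB-231 cells the balance of claudins was different. CLDN4 was the member with the highest median, 65.5 TPM over protein-coding genes over 16 libraries (36 to 95.3) against 0.704 in ER-Src (0.0409 to 31.6). In deposited TPM its range was 12.9 to 90.0 against 0.01 to 6.59. Every MDA-MB-231 library was above every ER-Src library on both scales, YAPi included, as for 10.4% of genes with a mean of at least 1 TPM in deposited TPM and 6.08% on the protein-coding scale. F11R was the reverse on the protein-coding scale, at 69.7 to 105.0 in ER-Src and 4.94 to 41.2 in MDA-MB-231, as for 5.83% of genes. In deposited TPM F11R overlapped (16.4 to 28.1 against 4.56 to 17.9), and 0 of the 7 members with a mean of at least 1 TPM were higher in all ER-Src libraries, against 2.38% of genes. Against the set 1 knockdowns alone, whose make-up is closer to that of ER-Src, CLDN7 and F11R were above in deposited TPM (4.54% of genes) and CLDN4 below (13.9%). Against the other 8 MDA-MB-231 libraries 0 members were above (5.23% of genes) and CLDN4 was below (42.8%). The lines differ in culture, library type and set at once.

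CDH1 (median 0.0 TPM, at most 1.03), KRT14 and ESRP1 (at most 0.6) were at or near 0 in MDA-MB-231, where VIM was 369.0 to 2590.0 TPM and KRT8 and KRT18 remained (medians of 285.0 and 268.0). EPCAM was present as well (3.1 to 17.4 TPM). KRT5 had a median of 0.0 TPM but reached 11.5. Its estimates in the 4 set 1 knockdowns against Ctrli were 9.49 to 10.05 and were not called (DESeq2 adjusted p 0.077 to 0.12). The other mesenchymal markers went both ways. Median TPM was higher than in ER-Src for ZEB1 (9.59 against 3.58) and SNAI2 (9.88 against 5.54). It was lower for CDH2 (0.095 against 4.15), ZEB2 (1.55 against 2.0) and FN1 (23.6 against 37.7). CLDN4 and CLDN7 (14.0 to 99.3 TPM over protein-coding genes) were thus expressed in cells listed near 0 for E-cadherin. Other members spanned a wide range within the line. OCLN was at 9.01 and 9.36 TPM over protein-coding genes in the set 1 controls and 0.754 and 0.531 in the set 2 controls. TJP1 was at 22.0 and 19.0 against 2.45 and 1.02, and CLDN1 at 4.5 and 5.38 against 0.425 and 1.07. CLDN4 itself was at 92.2 and 95.3 in set 1 and 39.9 and 36 in set 2. All 9 members were higher in both set 1 controls than in both set 2 controls on this scale, but so were 69.9% of genes with a mean of at least 1, so the count says little about the members. TJP3 had 26 and 20 counts in the set 1 controls and 4 and 1 in those of set 2.

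**Figure D4:**
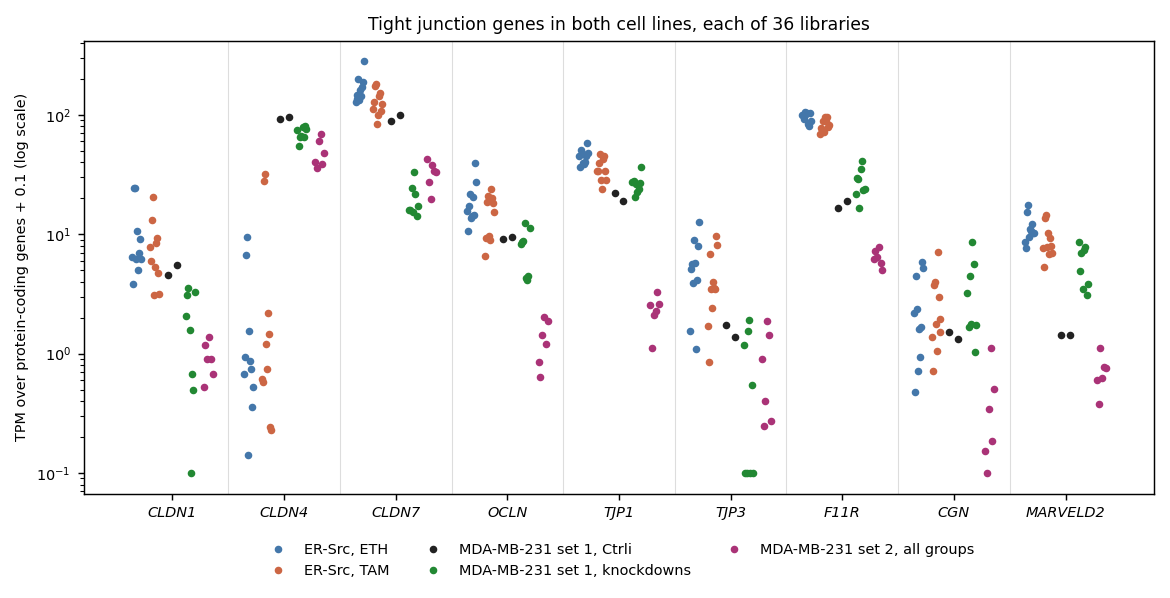
TPM over protein-coding genes plus 0.1 (y axis, log scale) of the 9 genes (x axis) in all 36 libraries, coloured by cell line, treatment and set. CLDN4 is the gene whose MDA-MB-231 points (36 to 95.3) all lie above the ER-Src points, and F11R the gene whose ER-Src points (69.7 to 105.0) all lie above.

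In set 1, comparing each knockdown with Ctrli gave 11 calls among 36 pairs, 2 higher and 9 lower. The share of all genes called was 24.6% for YAPi, 32.6% for TAZi, 35.5% for YAPi_TAZi and 27.4% for TEADi, so the members' share stands near the background. Called lower were 12.1%, 16.7%, 18.2% and 14.0% of genes in that order, and called higher in TAZi and YAPi_TAZi were 15.9% and 17.3%. CLDN7 fell in all 4. It had 794 and 934 counts in Ctrli (88.9 and 99.3 TPM over protein-coding genes) and 10 to 25 counts in the knockdowns (14.0 to 33.4). The log2 fold changes were -2.81 in YAPi, -2.54 in TAZi, -2.29 in YAPi_TAZi and -2.98 in TEADi (SE 0.27 to 0.38, adjusted p 5.2e-17 to 9.2e-14). The set 2 libraries, similar in make-up to the set 1 controls, held CLDN7 at 19.6 to 43.0 TPM over protein-coding genes. In all 4 comparisons SNAI2 (1.48 to 2.89) and ZEB1 (0.49 to 1.02) were called higher and KRT8 (-1.04 to -0.53) and KRT18 (-1.19 to -0.44) lower, while VIM and FN1 were called lower in 3 each, and their part was not tested. CLDN4 fell in YAPi (-0.65, adjusted p 0.0061), TAZi (-0.77, adjusted p 3.3e-08) and YAPi_TAZi (-0.61, adjusted p 1.9e-05), and had -0.44 (adjusted p 0.041) in TEADi. With the controls of both sets these 3 calls of CLDN4 were lost (adjusted p 0.33, 0.21 and 0.37), as they were without either Ctrli library (0.064 to 0.28). Those in YAPi and YAPi_TAZi were also lost without replicate 2 of the knockdown (0.1 and 0.023).

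The remaining set 1 calls were on few reads. In YAPi_TAZi, CLDN1 had 0 and 2 counts against 132 and 161 in Ctrli. The ratio of summed counts, scaled by protein-coding counts, was 0.0638 (95% exact counting interval 0.00769 to 0.232), and the adjusted p was 0.00055, or 0.012 to 0.13 when any of the 4 libraries was left out. OCLN in YAPi_TAZi had 5 and 17 counts against 232 and 245 (-1.36, SE 0.39, adjusted p 0.0016). MARVELD2 rose in TAZi (1.48, SE 0.48, adjusted p 0.006) and YAPi_TAZi (1.43, SE 0.46, adjusted p 0.0058), from 1.32 and 1.34 TPM over protein-coding genes in Ctrli to between 3.36 and 7.7. TJP1, F11R, TJP3 and CGN were not called in any of the 4 with DESeq2, while edgeR called TJP1 higher in YAPi (0.51, adjusted p 0.0046) and TEADi (0.57, adjusted p 0.0018). For OCLN and MARVELD2, 9 of 11 alternatives lost the call.

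Among the set 1 knockdowns themselves, all rich in the 7 non-poly(A) RNAs, the double knockdown and TEADi were set against the YAPi and TAZi libraries. Of 18 pairs 12 had an adjusted p and 0 were called with DESeq2 or edgeR, against 4.96% and 5.19% of all genes. With DESeq2 1 pair had an unadjusted p under 0.05, CLDN1 in YAPi_TAZi, at 0 and 2 counts against 7 to 12. CLDN7 had estimates of 0.39 (interval -0.65 to 1.44) for YAPi_TAZi and -0.33 (-1.48 to 0.82) for TEADi. These libraries held 97 to 161 counts of CLDN4 and 10 to 25 of CLDN7, so a smaller difference was not detectable at this depth. Replicate 1 libraries had a length gap of 48.0 bases and 8.71% to 9.77% of those RNAs, against 74.6 bases and 11% to 11.8% in replicate 2, and 0 pairs were called when that number entered the fit as a block.

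In set 2, JUNBi and STAT3i gave 0 calls with DESeq2 and with edgeR, and at an unadjusted p under 0.05 they had 1 pair with DESeq2, CLDN4 in JUNBi, and 3 with edgeR. Only 3 of 18 pairs received an adjusted p, because independent filtering kept the most abundant 7966 genes in JUNBi (3.41% called) and 2013 in STAT3i (0.497% called). CLDN4 was at 37.6 and 33.9 TPM in Ctrli, 56.6 and 65.0 in JUNBi and 36.5 and 45.2 in STAT3i. The JUNBi libraries lay above the controls, with a log2 fold change of 0.47 (SE 0.21, adjusted p 0.15). CLDN7 had -0.55 (SE 0.30, adjusted p 0.25) and F11R -0.10 (SE 0.29, adjusted p 0.88) in JUNBi. OCLN was at 0.71 and 0.5 TPM in Ctrli, 1.25 and 1.81 in JUNBi and 1.04 and 1.69 in STAT3i, and had no adjusted p in either. TJP3 and CGN held at most 14 counts in any set 2 library.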

How the data were processed

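RNA was measured by sequencing in 36 libraries, and groups and replicate numbers came from the sample titles. The study's methods state that libraries were built from total RNA with a TruSeq Ribo Profile kit. The authors trimmed reads, aligned them with STAR to GENCODE version 30 (hg38) with at most 20 alignments per read, and used RSEM for quantification. The deposited tables give RSEM expected counts, estimated read numbers that need not be whole, and TPM, which the authors scaled by effective length. The deposited length and effective length are given in bases and served for offsets and checks. Symbols and coordinates came from GENCODE version 44, which matched 93.1% of 60725 genes. Identifiers that name no Ensembl gene held at most 0.109% of counts and were left out.

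Expected counts were rounded and each knockdown was compared with its Ctrli libraries in its own run of DESeq2 (1.42.0 in R 4.3.3, default settings), with a Benjamini-Hochberg adjusted p under 0.01 over all genes as a call. Interactions were fitted over 4 groups. The run of YAPi_TAZi against Ctrli used a local dispersion fit. Genes left without an adjusted p by independent filtering count as not tested. Intervals are 95%, from the estimate and its SE. Depth was 1411304 to 19161700 counts per library, and counting intervals cover counting error only. In total 21 comparisons were made. Alternatives were edgeR 4.0.16 (quasi-likelihood), TMM size factors, a mean count of at least 10, effective length offsets, a fit over all groups, the replicate number as a block, controls of both sets, and leaving out each library. All 9 members, called genes of the list of 37 further tight junction genes, the targeted genes, cell type markers and the 2 genes most like each member were named. A single result on the further list is not reported here. The members and lists were chosen with earlier results of these data known. The statistics were tested on simulated data. Among the set 1 knockdowns the replicate numbers paired the libraries (correlation of deviations 0.673 to 0.76). Libraries of one group were not duplicates (chi-square per gene at least 2.18).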

Additional observations from a re-analysis of the deposited data

How the results depend on the processing

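With replicate numbers entered as a block, member calls went from 8 to 4 for knockdowns under TAM, from 6 to 5 under ETH and from 11 to 7 in set 1, and the counts of 0 for TAM against ETH, for the interactions and among the set 1 knockdowns did not change. Over all genes the block changed the calls of YAPi from 1511 to 770 under TAM, from 1713 to 1122 under ETH and from 4072 to 2555 in set 1. Those of STAT3i under TAM went from 1167 to 655, while those of JUNBi under ETH went from 421 to 532. The calls lost under the block were OCLN (adjusted p 0.046), MARVELD2 (0.018) and CLDN7 (0.022) in YAPi under TAM, OCLN in STAT3i under TAM (0.012), CGN in JUNBi under ETH (0.013) and, in set 1, CLDN4 in YAPi (0.049), MARVELD2 in TAZi (0.22) and OCLN (0.029) and MARVELD2 (0.12) in YAPi_TAZi. In set 1 against Ctrli the numbers were not shown to pair the libraries (correlations of -0.037 to -0.018). Over all ER-Src comparisons, interactions included, the correlations were -0.176 to 0.556. For knockdowns against Ctrli they were -0.05 to 0.042 under TAM and 0.14 to 0.397 under ETH, highest in JUNBi. Some pairing under ETH is thus possible, and the main fits did not model it. In set 2 no paired analysis was possible because its controls carry other replicate numbers than its knockdowns. Effective length offsets left 3 calls under ETH, and in set 1 a fit over all groups left 7 and the controls of both sets left 4. Over all genes, the offsets changed the calls of JUNBi under ETH from 421 to 385. For YAPi in set 1 a fit over all groups changed them from 4072 to 3806 and the controls of both sets to 1222. Leaving out 1 library gave 2 to 8 calls under TAM, 2 to 6 under ETH, 0 to 1 among the interactions, 4 to 12 in set 1, and 0 for TAM against ETH, among the set 1 knockdowns and in set 2. The members above all MDA-MB-231 libraries numbered 0 in deposited TPM, 1 in TPM over protein-coding genes and 2 against the set 1 knockdowns only. No called member reversed its direction. CLDN4 in YAPi under TAM (5.50 to 5.93), CLDN1 in YAPi under ETH (1.95 to 2.35) and CLDN7 in the 4 set 1 knockdowns (-3.20 to -2.04) were called under every alternative run. For CLDN7 each of those runs still set knockdowns against controls of another library type. None of them could therefore tell knockdown and library type apart. Where a call was lost, the cause was not tested, except that leaving out a library leaves 3 samples. Depth limits CLDN4, CGN and TJP3 in ER-Src controls, at 4 to 38 counts, and all members in the set 1 knockdowns.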
